A study of Homo sapiens with 9 samples.

Results

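The 9 genes TAL1, STIL, TAL2, LYL1, LMO1, LMO2, LDB1, TCF3 and TCF12, of 20037 protein-coding genes in the RefSeq table, were taken as the genes of the TAL1-LMO complex. They were chosen by name, with earlier results of these data known. Every called peak within the gene body and 50 kb to each side (the window) was collected. The data were ChIP-seq peak lists from RPMI-8402, an established human line of T-cell acute lymphoblastic leukaemia (T-ALL). An antibody against the homeodomain factor NKX2-1 was used on 4 NKX2-1 knockout (KO) clones, C12, C15, S04 and S36, and on 4 wild-type (WT) clones, WT10, WT13, WT28 and WT30, with 1 library per clone. The knockout status of the first 4 comes from the series design text, since their genotype field reads NKX2-1 alone. A single further library, with an antibody against H3K27ac (acetylated lysine 27 of histone H3, a mark of active promoters and enhancers), also carries the genotype NKX2-1 and names no clone.

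TAL1, TAL2 and LYL1 are basic helix-loop-helix factors that bind E-box DNA together with the E-proteins TCF3 (E2A) and TCF12 (HEB). LMO1 and LMO2 are LIM-only proteins that do not bind DNA themselves and link such dimers to the adaptor LDB1 and to GATA and RUNX factors. STIL, a centrosome duplication gene, is the neighbour of TAL1, and in part of T-ALL a deletion places TAL1 under the STIL promoter. RPMI-8402 is described in the field as carrying such a STIL-TAL1 deletion and a translocation of LMO1 to the T-cell receptor delta locus. Peak lists show no rearrangement, and coordinates below are those of the unrearranged hg38 reference.

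H3K27ac marked a subset of the complex and no NKX2-1 antibody peak lay at any of its genes. LYL1 had 20 H3K27ac peaks in its window, LMO1 and TCF12 had 4 each, LDB1 and TCF3 had 3 each, TAL1 had 1, which STIL shared, and TAL2 and LMO2 had 0. The windows differed in length, from 101 kb (TAL2) to 473 kb (TCF12). Per 100 kb of window LYL1 had 19.3 peaks, LMO1 2.77, LDB1 2.51, TCF3 2.09, TAL1 0.862, TCF12 0.845 and STIL 0.607. In all, 35 distinct H3K27ac peaks were found, and 13 of them touched a gene body. The KO and WT libraries, the authors' combined NKX2-1 list and their WT-only list held 0 peaks in these windows. Over all protein-coding genes 44.8% had an H3K27ac peak in the window, and 5.61% had an NKX2-1 antibody peak in any of the 8 libraries. At that share the absence of NKX2-1 antibody peaks is near the background and is not a result about these genes.

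The starts of LYL1, LMO1 and TAL1 (inner) under H3K27ac are shown because these genes lead the results, beside the outer TAL1, STIL and TAL2 starts, which were not under it. The TCF3 start and 3 of the 5 TCF12 starts were also touched by H3K27ac and are not printed. Each window is given with 250 bases before and 50 after the start, from RefSeq (GRCh38.p14), 5′ to 3′ on the strand of the gene. Capitals mark 4 motifs. CANNTG is the E-box. The core of GATA factor sites is GATA. RUNX factors bind the core written ACCACA here. The core of NK2-family sites, to which NKX2-1 belongs, is AAGTG. Each was searched on both strands, so that its reverse complement also counts. Matches can share bases, as an E-box and a GATA core do in TAL2, and an E-box with CT in its middle would also hold an NK2 core. LMO2 has no entry in the sequence table.
LYL1 start, chr19:13102809-13103108, minus strand: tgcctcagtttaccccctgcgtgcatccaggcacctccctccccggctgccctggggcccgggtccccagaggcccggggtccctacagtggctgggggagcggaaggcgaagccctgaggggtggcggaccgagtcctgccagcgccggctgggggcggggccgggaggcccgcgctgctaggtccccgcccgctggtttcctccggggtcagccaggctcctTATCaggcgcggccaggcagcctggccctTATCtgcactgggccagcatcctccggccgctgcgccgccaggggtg
LMO1 start, chr11:8268738-8269037, minus strand: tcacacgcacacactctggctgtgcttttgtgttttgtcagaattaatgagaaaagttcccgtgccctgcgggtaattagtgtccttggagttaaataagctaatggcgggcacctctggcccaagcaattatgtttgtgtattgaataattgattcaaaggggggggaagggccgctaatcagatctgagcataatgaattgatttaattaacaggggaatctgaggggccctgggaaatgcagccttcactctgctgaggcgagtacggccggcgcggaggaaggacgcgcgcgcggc
TAL1 inner start, chr1:47231666-47231965, minus strand: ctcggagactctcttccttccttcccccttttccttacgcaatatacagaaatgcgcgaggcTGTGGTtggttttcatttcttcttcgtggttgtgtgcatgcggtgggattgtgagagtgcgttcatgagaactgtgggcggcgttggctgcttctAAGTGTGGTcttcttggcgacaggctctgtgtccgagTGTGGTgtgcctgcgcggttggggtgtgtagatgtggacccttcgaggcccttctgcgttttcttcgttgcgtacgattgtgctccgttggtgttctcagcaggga
TAL1 outer start, chr1:47232286-47232585, minus strand: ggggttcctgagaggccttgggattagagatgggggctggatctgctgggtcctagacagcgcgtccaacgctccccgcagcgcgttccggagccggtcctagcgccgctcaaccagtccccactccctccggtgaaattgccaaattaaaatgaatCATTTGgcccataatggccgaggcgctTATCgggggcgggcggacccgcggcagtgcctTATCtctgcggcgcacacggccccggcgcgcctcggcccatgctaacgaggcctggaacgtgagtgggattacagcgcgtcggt
STIL start, chr1:47314098-47314397, minus strand: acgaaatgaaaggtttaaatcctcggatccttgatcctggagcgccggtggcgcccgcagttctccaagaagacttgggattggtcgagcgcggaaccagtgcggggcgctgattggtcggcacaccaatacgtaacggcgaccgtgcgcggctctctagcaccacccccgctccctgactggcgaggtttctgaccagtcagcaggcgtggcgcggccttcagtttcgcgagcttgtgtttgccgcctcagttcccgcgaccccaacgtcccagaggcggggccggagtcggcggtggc
TAL2 start, chr9:105662207-105662506, plus strand: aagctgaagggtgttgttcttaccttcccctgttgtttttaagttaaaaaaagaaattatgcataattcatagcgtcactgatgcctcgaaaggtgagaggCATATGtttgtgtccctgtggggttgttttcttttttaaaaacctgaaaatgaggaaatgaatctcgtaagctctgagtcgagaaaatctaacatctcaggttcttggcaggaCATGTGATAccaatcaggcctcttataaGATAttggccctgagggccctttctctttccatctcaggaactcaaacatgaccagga

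The LYL1 and LMO1 start windows lay wholly under an H3K27ac peak. Of the inner TAL1 start window, 134 of the 300 bases lay under one, and of the outer TAL1, STIL and TAL2 windows 0. The inner TAL1 start held 3 RUNX cores and 1 NK2 core, which share bases at 1 place. The peak covered the 134 bases at the 3′ end of this window. Only the last RUNX core lay under it, and the other RUNX cores and the NK2 core lay outside. RUNX cores were present in 11.3% and NK2 cores in 40.7% of 22199 protein-coding start windows of this length. The LYL1 start held 2 GATA cores, both read on the opposite strand, and GATA was present in 43.6% of all start windows. Neither LYL1 nor LMO1 held an E-box, and LMO1 held no match to any of the 4 motifs.

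Over the 13 annotated start windows of the 8 genes in the table, 7 were touched by an H3K27ac peak and 6 were not. An E-box was found in 0 of the 7 under H3K27ac and in 4 of the 6 others, namely the outer TAL1 start, TAL2, and the first and last TCF12 starts. Among all protein-coding genes an E-box was found in 57.7% of the 2046 start windows under H3K27ac and in 65.8% of the 20153 others. The 5 TCF12 starts belong to 1 gene, so these windows are not independent, and the counts are a description.

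**Figure D1:**
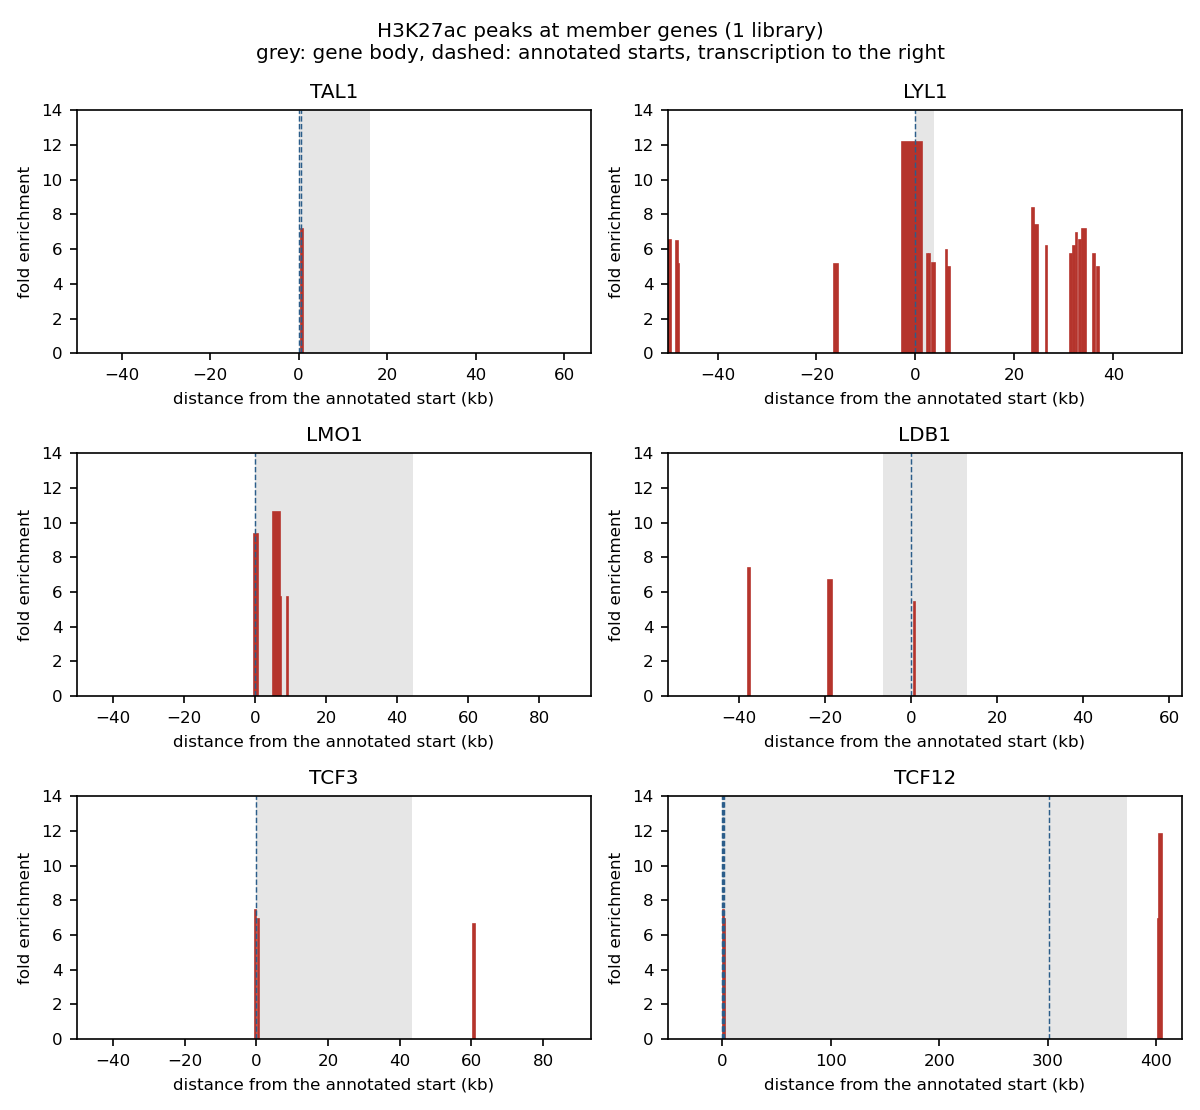
H3K27ac peaks in the windows of 6 member genes. The x axis gives the distance from the outermost start in the sequence table (kb, transcription to the right), the y axis the authors' fold enrichment, and bars span each peak with a thin outline. Grey marks the gene body and dashed lines the annotated starts. LYL1 has a 12.2-fold peak over its start with clusters on either side, LMO1 peaks lie at its 5′ end, and TAL1 has 1 peak.

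Among the helix-loop-helix genes, LYL1 carried the most H3K27ac. LYL1 (chr19:13099033-13102858, minus strand) lay under a peak of 4089 bp (chr19:13101488-13105576, 12.2-fold enrichment as deposited), which spanned the start and reached into the neighbouring tRNA methyltransferase gene TRMT1. Among the 9857 H3K27ac peaks of the library 33 (0.335%) were at least as wide and 354 (3.59%) at least as enriched. The LYL1 body held 3 further peaks of 235, 289 and 537 bp, with 5.70-, 5.70- and 5.21-fold enrichment. The 4 peaks ran from the start to the end of LYL1, and 334 protein-coding genes (1.67%) had 4 or more peaks on the gene body.

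The other 16 peaks of the LYL1 window lay outside the gene. Downstream, 12 lay in NFIX, which encodes a nuclear factor I transcription factor, and the highest of them (chr19:13078941-13079384) had 8.39-fold enrichment. Upstream, 1 lay in NACC1 (5.17-fold) and 3 in the immediate early gene IER2 (5.15-, 6.49- and 6.52-fold). With 20 peaks, the LYL1 window stood among the 29 protein-coding genes (0.145%) with as many or more. Peaks covered 12.1 kb of it, and 0.474% of genes had as much coverage. The windows of NFIX, TRMT1, NACC1, STX10 and IER2 share some of these peaks, so the rank belongs to the stretch of chromosome 19 and not to LYL1 alone.

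When peaks up to 10 kb apart were joined into domains, LYL1 lay in a domain of 9.64 kb with 6 peaks covering 5.93 kb, and 105 of the 5270 domains (1.99%) covered as much. A separate domain of 13.6 kb with 10 peaks lay within NFIX. By number of peaks, covered length and highest fold, each as a rank over all genes in the single H3K27ac library, the 3 genes most like LYL1 were ENO2 (17 peaks, 13.1 kb), LRRC23 (16 peaks, 12.4 kb) and ATN1 (16 peaks, 12.7 kb). All 3 had the same highest fold as rounded (12). Whether their windows share peaks was not examined, so they may stand for fewer than 3 loci.

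TAL1 had little H3K27ac by comparison. TAL1 (chr1:47216290-47232335, minus strand) carried 1 peak of 473 bp (chr1:47231327-47231799, 7.16-fold), which covered the inner of its 2 annotated starts, with its summit 165 bp downstream of that start. Along the chromosome it stood alone. The next H3K27ac peak toward lower coordinates lay 513 kb away in EFCAB14, and the next toward higher coordinates 545 kb away in TRABD2B. A peak with as high a fold was present in the windows of 22.9% of protein-coding genes.

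STIL (chr1:47250139-47314896) had no H3K27ac peak in its body or at its start. No peak was called in the 82.3 kb between the TAL1 peak and the STIL start. The lone peak in the STIL window was that of TAL1, 18.3 kb from the end of STIL. In the whole library a peak lay within 1 kb of an annotated start in 20.8% of the 15843 protein-coding genes with a start in the sequence table, so a start without a peak was common.

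TAL2 (chr9:105662457-105663124), an intronless relative of TAL1, had 0 H3K27ac peaks in its window. The nearest lay 668 kb away on the lower side and 1620 kb away on the higher side, in the DNA repair gene RAD23B. Of the 3 related factors, LYL1 thus had 20 peaks in its window, most of them in neighbouring genes, TAL1 had 1 and TAL2 had 0. On the gene bodies LYL1 had 4, TAL1 had 1 and TAL2 had 0. With 1 library these numbers have no replicate error.

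The LIM-only genes differed as well. LMO1 (chr11:8224309-8268787, minus strand) carried 4 peaks, all in its body. The peak over its start (chr11:8267817-8269094) was 1278 bp wide with 9.36-fold enrichment. The widest, of 2109 bp (chr11:8261713-8263821), had 10.6-fold enrichment and a summit 6429 bp downstream of the start. Peaks of 237 and 200 bp, both 5.70-fold, lay farther inside, the last with its summit 9119 bp from the start. The 4 peaks formed a domain of 9.56 kb, of which 3.82 kb was covered, and 225 of the 5270 domains (4.27%) covered as much. The rest of the LMO1 window, including the 3′ side of the gene, held 0 peaks.

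LMO2 (chr11:33858576-33892076) had 0 peaks in its window. The nearest lay 159 kb away in CAPRIN1, with 7.90-fold enrichment, and the nearest on the other side 600139 bp away in the kinase gene HIPK3. At 4 or more peaks LMO1 stood with 9.46% of protein-coding genes. By covered length 3.45% of genes had as much.

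The shared partners LDB1, TCF3 and TCF12 each carried H3K27ac near a start. For LDB1 (chr10:102102088-102121442, minus strand), the adaptor that dimerises and bridges complexes, the peak in the body was 310 bp wide and 5.45-fold enriched (chr10:102114074-102114383). Its edge lay 619 bp downstream of the 1 start in the sequence table. That start, at 102115002, lies inside the gene body and not at its 5′ end, and no peak touched its start window. The other 2 lay in PPRC1 (6.68-fold) and at NOLC1 (7.41-fold). TCF3 (chr19:1609292-1652615) had peaks on either side of its start, of 489 bp (6.92-fold) inside the gene and 381 bp (7.41-fold) 32 bp outside it. Its remaining peak lay in MBD3 (6.64-fold).

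TCF12 (chr15:56918090-57291310, plus strand, 373 kb) had peaks of 856 bp (7.41-fold) and 514 bp (6.92-fold) at its cluster of 5′ starts and none in the rest of its body. Downstream of TCF12 lay the second widest peak of the set, 3342 bp (chr15:57320330-57323671, 11.8-fold), within the non-coding gene LINC01413 and 29020 bp beyond the end of TCF12. Of the 9857 peaks, 69 were at least as wide. TCF12 was the nearest protein-coding gene, and the target of this peak cannot be read from peak positions.

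**Figure D2:**
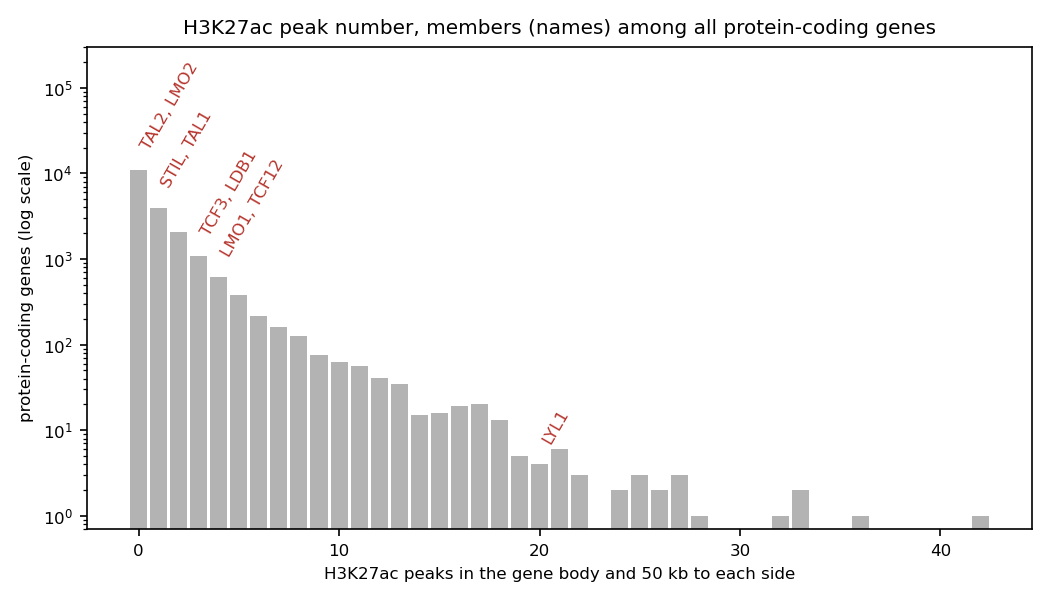
Number of protein-coding genes (y axis, log scale) by number of H3K27ac peaks in the gene body and 50 kb to each side (x axis), with the 9 members named above the bar they belong to. LYL1, with 20 peaks, stands among 29 genes with as many or more, while TAL2 and LMO2 stand with the genes that had 0.

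Set against all protein-coding genes, an H3K27ac peak was present in the windows of 7 of the 9 members, against 44.8% of all genes. On gene bodies the numbers were 6 of 9 members and 21.2% of all genes, and within 1 kb of an annotated start 6 of 8 members and 20.8%. The median was 3 peaks per window over the members and 0 over all genes. The median covered length was 1.31 kb for the members and 0 kb for all genes. The members were chosen as genes of T-ALL, with earlier results of these data known, and were not drawn at random. No test was made of the difference, and these shares and medians were not adjusted for gene length. Peaks of the members had a median width of 422 bp and a median fold of 6.52, against 391 bp and 6.19 for all peaks of the library, and 11.4% of each were wider than 1 kb.

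The NKX2-1 antibody comparison asked whether NKX2-1 was bound near these genes. All 4 KO libraries and all 4 WT libraries had 0 peaks in the 9 windows (mean 0, SD 0, n = 4 each), and the exact two-sided permutation test over 70 assignments gave p = 1 for the number of peaks and p = 1 for the number of members with a peak. With 0 in every library each assignment gives a difference of 0, so this outcome was fixed and says nothing about KO against WT. A peak in the window was rare for any gene. It was present for 1.13% (C12), 0.938% (C15), 0.843% (S04) and 3.19% (S36) of protein-coding genes in KO libraries, and for 2.98% (WT10), 0.599% (WT13), 1.44% (WT28) and 0.998% (WT30) in WT libraries. The share was 3.39% over the 4 KO libraries, 3.38% over the 4 WT libraries and 5.61% over the 8 libraries together, 1.68% for the combined list and 2.40% for the WT-only list. At such shares 0 of 9 is near the background and is not a result about these genes, and with depth unknown it does not show that they are unbound. Fisher's exact test of KO against WT calls cannot give a p under 0.0286 for any gene. Across all 20037 genes 0 passed after Benjamini-Hochberg adjustment. None could pass unless most genes separated fully, so this 0 does not show that the genotypes had equal calls. At an unadjusted p under 0.05 there were 24 genes. Of these 24, 11 (0.0549% of genes) had more calls in KO and 13 (0.0649%) fewer, and none was a member.

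**Figure D3:**
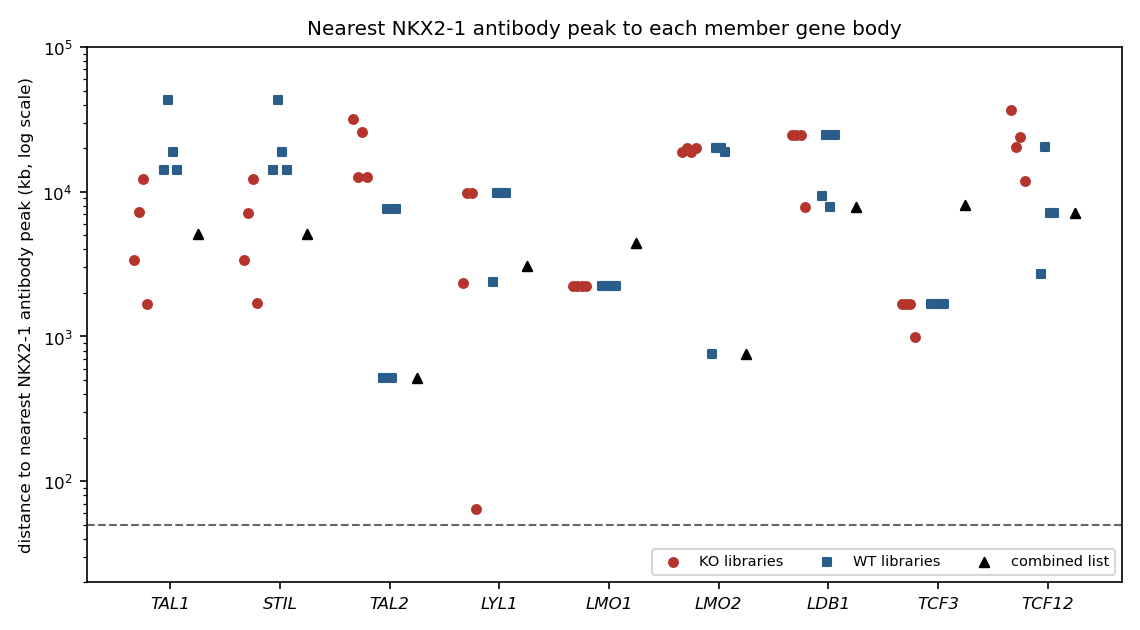
Distance from each member's gene body to the nearest NKX2-1 antibody peak (kb, log scale) in each of 4 KO libraries (circles) and 4 WT libraries (squares), and in the combined list (triangles). The dashed line marks 50 kb. The closest peak to any member lay 64.8 kb from LYL1 in the KO library S36.

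Most of the nearest NKX2-1 antibody peaks lay more than 1 Mb away, in 67 of the 72 pairs of a member and a library. Such distances were common for any gene. The median over all protein-coding genes was 5900 kb in KO and 5140 kb in WT libraries. Over the members it was 9766 kb and 8650 kb, and the difference was not tested. For LYL1 the distance was 2340 kb (C12), 9766 kb (C15), 9766 kb (S04) and 64.8 kb (S36) in KO libraries, and 2364 kb (WT10), 9766 kb (WT13), 9766 kb (WT28) and 9766 kb (WT30) in WT libraries. The S36 peak (chr19:13167667-13167866, 6.58-fold) lay beyond IER2, was called in S36 alone and was the only NKX2-1 antibody peak within 100 kb of a member. The ranges of the genotypes overlapped. The peak at 9766 kb, nearest to NFIC, was called in all 8 libraries.

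For TAL1 the nearest peak lay 3359 kb (C12), 7227 kb (C15), 12259 kb (S04) and 1672 kb (S36) away in KO libraries, and 14117 kb (WT10), 43039 kb (WT13), 18682 kb (WT28) and 14117 kb (WT30) away in WT libraries. Every KO distance was shorter than every WT distance. The same held for STIL, which lies beside TAL1 and has the same nearest peaks. For TCF3 the groups did not overlap either, but the longest KO distance (1679543 bp) and the shortest WT distance (1679640 bp) were to differently called edges of 1 region near NFIC that all 8 libraries share, so TCF3 shows no difference in which peak is nearest outside S36. Across all protein-coding genes a separation in this direction, of any size, was found for 3.30%. These are distances of megabases to peaks at other genes, such as ST3GAL3 and AZIN2.

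TAL2 showed the reverse order. Its nearest peak lay 31665 kb (C12), 12634 kb (C15), 25853 kb (S04) and 12634 kb (S36) away in KO libraries, and 517 kb (WT10), 7560 kb (WT13), 517 kb (WT28) and 7560 kb (WT30) away in WT libraries. The groups did not overlap, which was the case in this direction for 3.63% of all genes. The peak at 517 kb belonged to the combined list (chr9:105145005-105145315, 6.75-fold) and had SLC44A1 as its nearest protein-coding gene. LMO1 lay 2239 kb from its nearest peak in all 8 libraries, a region beside AMPD3 called in both genotypes. For LMO2 the combined-list peak in EHF, 758 kb away and called in WT10, was the nearest.

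Other genes of the pathway were read in the same way, from lists of partners and cofactors, of the E-protein family and its inhibitors, and of TAL1 and E-protein targets. Among 23 partners and cofactors 16 had an H3K27ac peak in the window, against 44.8% of all protein-coding genes, with a median of 1 peak against 0. Those with the highest folds were GATA2 (21.1-fold, 4 peaks), RUNX1 (11.6-fold, 25 peaks), HDAC1 (10.2-fold, 6 peaks), KDM1A (9.87-fold) and HDAC2 (9.61-fold). RUNX1 and the GATA factors bind DNA beside TAL1 in the complex, and the others are histone-modifying enzymes. HDAC1 had 0 peaks on its body, and its neighbour LCK, which encodes a T-cell kinase, shared the 10.2-fold peak and had 3 peaks on its body. GATA3, the GATA factor of T cells, had 1 peak with 5.70-fold enrichment. LCK and GATA3 were named after their values were seen.

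In the family of E-protein genes and inhibitors 3 of 8 genes had a peak in the window, which is near the 44.8% of all genes and is not a result about the family. ID3, which encodes an inhibitor that sequesters E-proteins, had 10 peaks in its window, the highest with 12.3-fold enrichment, but 0 on its body. HES1, a NOTCH target, had 3 peaks (6.19-fold) and NHLH1 had 1 (6.43-fold, 0 on its body). Among 17 target genes 13 had a peak, against the same 44.8%, with a median of 3. The targets are genes known from T-ALL and were not drawn at random, and the lists were also chosen with earlier results of these data known. The highest folds were at CDK6 (19.4-fold, 27 peaks), ETV6 (18.6-fold, 32 peaks), HHEX (17.7-fold, 1 peak), NFE2 (16.6-fold, 6 peaks) and MYB (14.7-fold, 12 peaks). The 4 target genes with 0 peaks, named after their values were seen, were KIT, RAG1, RAG2 and IL7R.

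**Figure D4:**
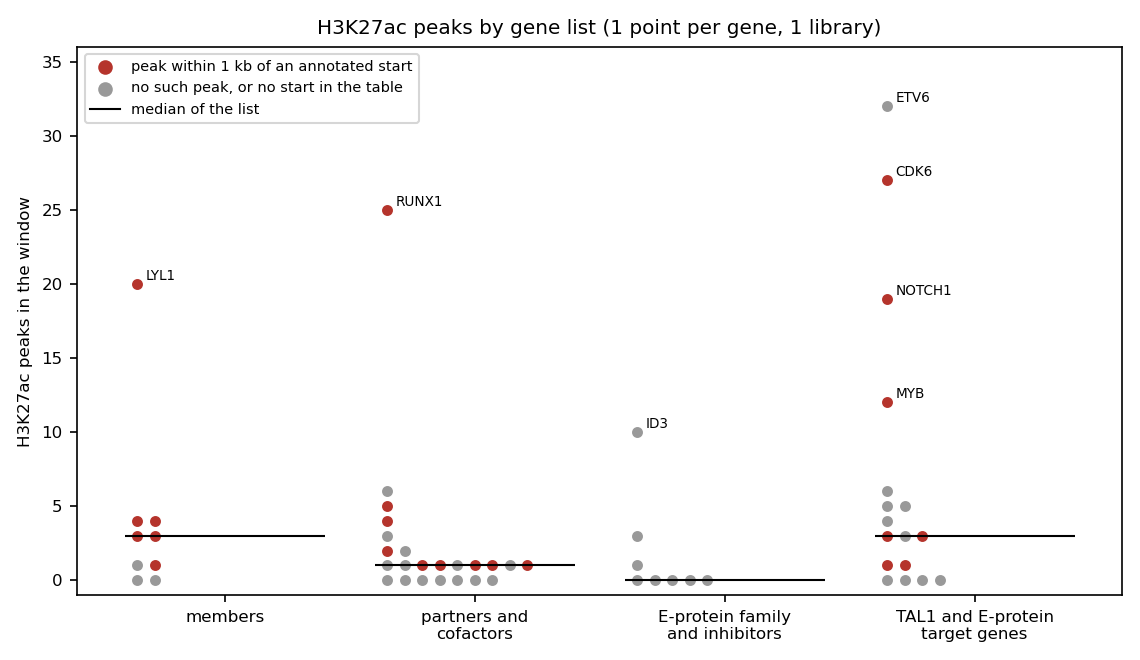
H3K27ac peaks in the window (y axis, number) for each gene of the members and of 3 pathway lists, with the median of each list as a line. Red points have a peak within 1 kb of an annotated start. LYL1 is the member with the most peaks (20), beside RUNX1 (25), CDK6 (27) and ETV6 (32) in the other lists.

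NKX2-1 antibody peaks were read in the same lists. A peak in the window was present in any KO library for 2 of 23 partners, 0 of 8 E-protein family genes and 2 of 17 targets, against 3.39% of all genes. In any WT library the numbers were 0 of 23, 0 of 8 and 2 of 17, against 3.38%. The difference from all genes was not tested. SSBP3, whose product stabilises LDB1, had a call in 3 KO libraries and 0 WT libraries, at a peak 45402 bp from the gene (chr1:54458892-54459190 in C15). No gene of the lists reached an unadjusted p under 0.05 in Fisher's exact test. Combined-list peaks lay within SSBP2, a paralogue of SSBP3 (chr5:81631179-81631447, 4.96-fold), and within RUNX2 (2.58-fold), both called in none of the 8 libraries. HHEX had a combined-list and a WT-only peak and CDK6 a WT-only region (chr7:92755155-92755356), both called in WT10 alone and both overlapping H3K27ac. WT10 held the most NKX2-1 antibody peaks of any library (1144). The H3K27ac library carries the genotype NKX2-1, so the overlap is not known to be in WT cells. In the other direction, ETV6 and NOTCH1 each had a call in 1 KO library and 0 WT libraries. NOTCH1 was named after its values were seen.

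The T-cell label of the line was checked on H3K27ac. Of 10 T-cell markers, 7 had a peak on the gene body and 9 in the window. Of 10 markers of other lineages, 0 had one on the body and 7 in the window. Over all protein-coding genes the shares were 21.2% on the body and 44.8% in the window. CD3D, CD3E and CD3G are neighbours that share the same 5 peaks in their windows, so their counts rest on 1 locus. CD2 was the T-cell marker with no peak in the window. The libraries held 810 to 934 peaks in KO clones, 742 to 1144 in WT clones and 9857 for H3K27ac on chromosomes 1 to 22, X and Y. Each clone gave 1 library, so p-values measure the spread between clones together with technical spread.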

How the data were processed

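RPMI-8402 cells were fixed, sonicated and immunoprecipitated, per the labels' protocols. Bowtie2, SAMtools, MACS2, FastQC and deepTools were used on hg38, per the submitters' processing notes; versions, parameters and controls are not given in the sources used here. Peak lists were deposited by the authors with a ratio (fold enrichment over the peak caller's background) and a −log10 q per peak, both the authors' own values, used only to describe and filter peaks, and a WT-only list of positions without values. Sequencing depth is unknown. Which libraries entered the combined list as control is not stated.

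A peak on chromosomes 1 to 22, X or Y was assigned to a gene by an overlap of 1 bp or more with its RefSeq GRCh38.p14 body and 50 kb to each side (Python 3.11.15, pandas 2.3.3, scipy 1.17.1). The gene table has no exons, so exonic or intronic position was not determined; strands and starts came from the RefSeq start table. KO and WT were compared by a two-sided exact permutation test and, per gene, Fisher's exact test with Benjamini-Hochberg adjustment. The smallest p that the permutation test, or Fisher's exact test for a gene, can give is 0.0286. Overlap and test code was checked on simulated peaks. The members and lists were chosen with earlier results of these data known. Named genes were the members, those nearest to named peaks, the up to 5 genes per list with the highest fold, those with a combined or WT-only peak, those without H3K27ac where a list had 3 or fewer (not reported here for other lineages), and the 3 genes most like LYL1. Genes outside this rule are named as such, except neighbours that share peaks with a member. Alternatives covered the window, −log10 q, summits, merging, joining distance and leaving out each library.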

Additional observations from a re-analysis of the deposited data

Results flagged for a closer look

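Among the 18 sets of 4 distances to the nearest NKX2-1 antibody peak (9 members, 2 genotypes), 6 held a library far from the other 3. Chance flags about 1 in 20 sets of independent values, a rate that does not apply here. For LDB1 and TCF3 in KO libraries and LYL1 in WT libraries the other 3 libraries had the same nearest region and differed only in its called edges, so any other nearest peak stands apart. TAL1 and STIL share their nearest peaks. In KO libraries S36 was the lowest for LDB1 (7797 kb, the others from 24826 kb) and for TCF3 (987 kb, the others at 1680 kb). In WT libraries WT10 was the lowest for LMO2 (758 kb, the others from 18815 kb) and for LYL1 (2364 kb, the others at 9766 kb). WT13 was the highest for TAL1 (43039 kb, the others up to 18682 kb) and for STIL (43073 kb, the others up to 18716 kb). S36 and WT10 had the most peaks in their genotypes (934 and 1144), and WT13 the fewest of all (742). The part of peak number in these distances was not tested.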

How the results depend on the processing

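The count of NKX2-1 antibody peaks was also 0 with the gene body alone, with 10 kb and with summits inside the window (difference 0 to 0). The same held at a −log10 q of 5 or more and without each library in turn. All these settings keep a part of the peaks, windows or libraries that already gave 0, so none of them could give a peak. With 100 kb to each side the difference of KO minus WT was 0.25 for peaks and for members (exact permutation p = 1), from the S36 peak near LYL1. A single peak in 1 library gives this p whichever library holds it. No gene passed adjustment of Fisher's exact test in any alternative run, an outcome that the smallest p of that test all but fixes in advance. The count at an unadjusted p under 0.05 was 7 with 10 kb, 37 without C15 and 60 without WT13, against 24. Leaving out a library can only keep or raise this count, since full separation of 3 against 4 libraries already gives a p under 0.05. Such rises, up to 60, therefore do not show that the library left out hid a difference. The 35 H3K27ac peaks became 13 on gene bodies, 16 with 10 kb, 19 at a −log10 q of 5 or more, 20 when peaks less than 1 kb apart were merged, and 4 at 10 or more, where 3 members (LYL1, LMO1 and TCF12) had one. Each of these settings keeps fewer peaks or a smaller window by its construction. LYL1 had 4 peaks on its body, 6 with 10 kb, 7 at a −log10 q of 5 or more and 9 after merging. Joining peaks up to 20 kb apart put LYL1 in a domain of 17 peaks over 53.4 kb that includes NFIX. Of the 67 values of single members under alternatives, 21 moved by over 1.5 times and the others did not. No paired analysis was possible because the clone names share no replicate number between genotypes. Depth is unknown, so a missing peak sets no limit on binding or acetylation.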
